A study of Homo sapiens with 4 samples.

Results

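Genes that carry a cell through G2 and mitosis were followed in hFOB 1.19 cells, a human osteoblast line, as the cells were taken from growth to matrix mineralization. The 45 genes are a list of symbols of genes that act in G2, on the spindle, at the kinetochore or in cytokinesis. The rule of the list is function and uses no measured value, but the list was drawn up with earlier results of these data known. All 45 were found among the 19610 gene symbols of the mRNA table. hFOB 1.19 is a clone of fetal osteoblasts that carries a temperature-sensitive SV40 large T antigen, so that it proliferates at a permissive lower temperature and differentiates when the temperature is raised. Active large T antigen binds and blocks the RB family. All 4 libraries come from this line and so share the gene for the antigen, but not the temperature. The activity of the antigen was not measured. The day 0 library is the control, grown at the lower temperature, and the libraries of days 3, 6 and 9 come from cells undergoing mineralization at the raised one. Day and temperature therefore cannot be told apart between day 0 and the later days, whereas days 3, 6 and 9 share 1 temperature. Each time point has 1 library, so no difference below has a replicate check, and neither an error nor a p-value can be given.

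Entry into mitosis is driven by the kinase CDK1 bound to cyclin B, which CDC25 phosphatases activate, and exit from it by the anaphase-promoting complex, which marks cyclin B and securin for destruction. Many genes of this machinery are transcribed mainly in G2 and mitosis. In quiescent cells the DREAM complex holds them silent, and in cycling cells its MuvB core joins B-MYB and then FOXM1 to switch them on. MuvB contacts DNA through LIN54 at a short element, the cell cycle homology region, which usually lies close to the start of transcription and downstream of CCAAT boxes bound by NF-Y.

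Promoter stretches are printed first because these elements were found in a larger share of these genes than of other genes, though not in all of them. RefSeq promoters on GRCh38.p14, from 250 bases before to 50 after each annotated start, were found for 38 of the 45 genes, and AURKA, TTK, TPX2, BIRC5, UBE2C, FOXM1 and RACGAP1 had no entry. Each line gives the 120 bases before the start, 5′ to 3′ on the gene's own strand. Capitals mark the homology region hexamer TTTGAA or its reverse complement TTCAAA, and the NF-Y box CCAAT or its reverse complement ATTGG. The first 5 genes had the highest day 0 level among those with the hexamer anywhere in the window. The next had the highest day 0 level among those with neither the hexamer, its variant TTCGAA nor an NF-Y box in the window. The last 3 were added after their values had been seen, because PLK1 and CCNB1 were among the largest decreases and CCNB2 is the sister gene of CCNB1.
ANLN, chr7:36389742-36389861, plus strand: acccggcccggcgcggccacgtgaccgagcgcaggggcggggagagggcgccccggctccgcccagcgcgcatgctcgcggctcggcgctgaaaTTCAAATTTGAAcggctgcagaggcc
TOP2A, chr17:40417897-40418016, minus strand: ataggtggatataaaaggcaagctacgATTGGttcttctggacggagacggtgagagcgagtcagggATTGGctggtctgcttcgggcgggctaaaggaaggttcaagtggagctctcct
PRC1, chr15:90994536-90994655, minus strand: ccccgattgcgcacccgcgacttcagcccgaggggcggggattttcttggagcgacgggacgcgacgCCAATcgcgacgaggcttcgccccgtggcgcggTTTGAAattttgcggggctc
CDC20, chr1:43358861-43358980, plus strand: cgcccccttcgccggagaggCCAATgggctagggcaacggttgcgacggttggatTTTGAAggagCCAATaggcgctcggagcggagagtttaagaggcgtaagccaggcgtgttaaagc
NUSAP1, chr15:41332761-41332880, plus strand: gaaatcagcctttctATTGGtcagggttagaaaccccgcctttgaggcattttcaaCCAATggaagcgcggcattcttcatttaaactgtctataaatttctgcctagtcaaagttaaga
KIF2C, chr1:44739717-44739836, plus strand: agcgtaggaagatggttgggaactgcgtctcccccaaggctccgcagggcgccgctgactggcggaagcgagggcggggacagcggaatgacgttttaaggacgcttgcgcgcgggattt
PLK1, chr16:23678769-23678888, plus strand: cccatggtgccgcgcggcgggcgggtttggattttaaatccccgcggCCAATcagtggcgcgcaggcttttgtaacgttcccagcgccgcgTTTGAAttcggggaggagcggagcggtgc
CCNB1, chr5:69167030-69167149, plus strand: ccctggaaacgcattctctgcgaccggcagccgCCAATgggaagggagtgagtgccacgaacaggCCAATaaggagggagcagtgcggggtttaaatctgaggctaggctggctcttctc
CCNB2, chr15:59105026-59105145, plus strand: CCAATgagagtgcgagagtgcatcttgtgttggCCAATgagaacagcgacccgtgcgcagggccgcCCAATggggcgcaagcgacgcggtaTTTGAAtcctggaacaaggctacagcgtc

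The hexamer begins 29 bases before the start in PLK1 and in CCNB2, and 20 before it in PRC1. In ANLN it is written on both strands back to back. The matches of TOP2A lie 194 and 151 bases before the start, and that of NUSAP1 lies 13 bases after it, so neither is in the stretch shown. CCNB1 has no TTTGAA in its window but has TTTAAA 30 bases before the start, and its 2 NF-Y boxes begin 87 and 55 bases before it. CCNB2 has boxes at 120, 87 and 54 bases before its start.

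TTTGAA, searched on both strands, was found in 28 of the 38 promoter sets (73.7%), against 13.4% of the 9801 other expressed genes and 18.2% of all 27305 symbols in the table. CCAAT was found in 32 (84.2%), against 43.2% and 39.7%. Both TTTGAA and at least 2 CCAAT were found in 16 (42.1%), against 1.79% and 2.20%. TTTAAA was found in 16 (42.1%), against 11.1% and 14.5%, and TTCGAA, a rarer form of the homology region, in 3 (7.89%), against 2.40% and 1.82%. The E2F motif was searched in the spelling TTCCCGC, in a second spelling, TTGGCGC, which can share letters with the reverse complement of the NF-Y box, and in the last spelling, TTCGCGC. Any of them was found in 9 (23.7%), against 21.6% and 13.1%. The homology region and the NF-Y box were thus held by a larger share of these genes than of other genes, and the E2F motifs by about the share of other expressed genes.

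The matches of these genes lay close to the start. TTTGAA lay wholly within the 75 bases before the start in 17 of 38 (44.7%), against 2.69% of other expressed genes and 4.22% of all symbols, a limit chosen after the positions had been seen. The NF-Y box was most frequent in the 25 bases that begin 75 before the start, where 57.9% of these genes and 13.1% of other expressed genes had a match. A match of letters is a description and does not show that a factor was bound.

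**Figure D1:**
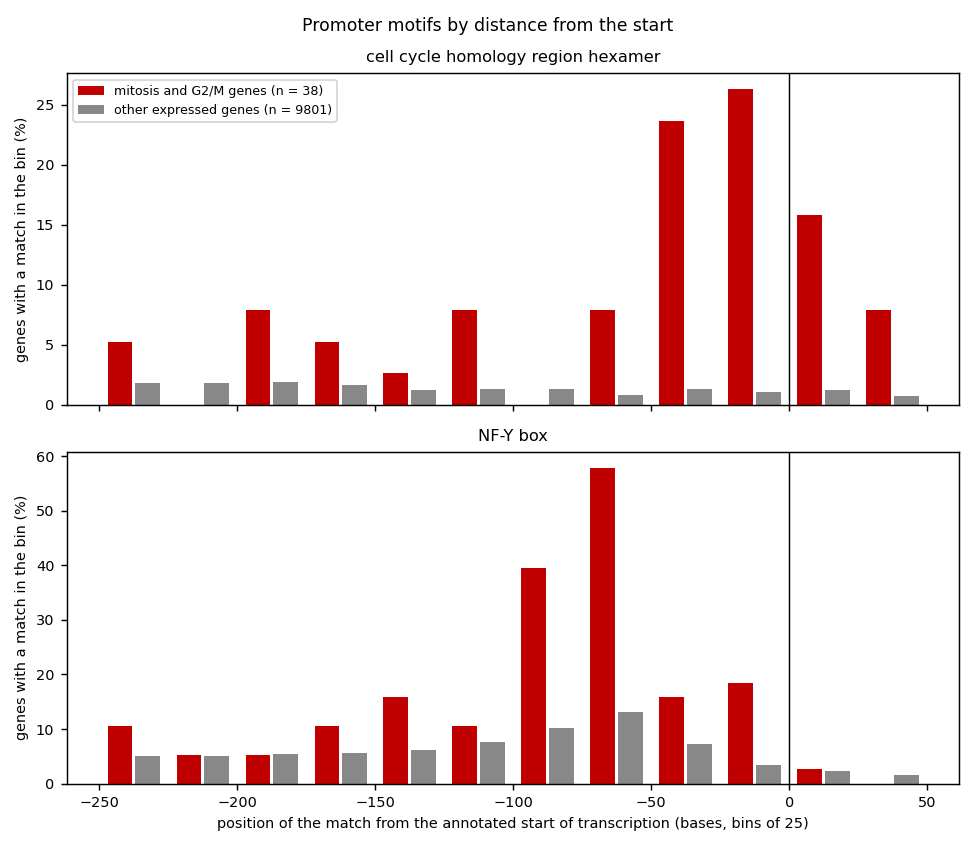
Share of genes (%) with a match to the homology region hexamer (top) or the NF-Y box (bottom) in each bin of 25 bases, by distance from the annotated start; red bars are the 38 mitosis and G2/M genes with a promoter entry and grey bars are 9801 other expressed genes. The hexamer peaks in the last 2 bins before the start (23.7% and 26.3% of the mitosis genes, 1.30% and 1.03% of the others), and the NF-Y box peaks further upstream.

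The 45 genes were expressed strongly in growing cells. Levels are FPKM, fragments per length of transcript and per total of mapped fragments, summed over the transcripts of a gene, and so are scaled for transcript length. On day 0 the median of the 45 genes was 86.3 FPKM, against 14.2 FPKM over the 12859 genes with at least 1 FPKM in any library, and 44 of the 45 lay above that median. On days 3, 6 and 9 their median was 22.2, 22.2 and 22.3 FPKM. Their summed FPKM was 4766 on day 0 and 1708, 1631 and 1615 on days 3, 6 and 9, which was 0.771%, 0.317%, 0.299% and 0.283% of the FPKM of all genes. All 45 genes reached 1 FPKM and none was left out.

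Each of the 45 genes was lower on days 3, 6 and 9 than on day 0. Changes below are log2 ratios of FPKM + 1, which understate the change of a low gene, and a gene was called past the limit at a ratio of at most -1 or at least 1, that is 2-fold. On day 3, 36 of 45 genes (80.0%) were past the limit downwards, where 5.30% of those 12859 genes, the tested genes below, were. On day 6 there were 38 (84.4%) against a background of 6.42%, and on day 9 there were 39 (86.7%) against 6.52%. On all 3 days 34 of 45 (75.6%) were past it, against 3.45% of all tested genes, and 0 of 45 were past it upwards on any day, where 8.13%, 9.01% and 9.60% of all tested genes were on days 3, 6 and 9. These comparisons share the day 0 library. The median ratio of the 45 genes was -1.55, -1.67 and -1.69 on days 3, 6 and 9, where that of all tested genes was -0.08, -0.08 and -0.09. In RNA of whole cultures, fewer cells in G2 and mitosis and less of these mRNAs per cell cannot be told apart.

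The decreases differed in size. The percentage of the day 0 FPKM that was left on day 3 ranged from 6.17% (PLK1) to 71.7% (CDK1), with a median of 33.0%. On day 6 the range was 4.76% to 71.5% with a median of 31.0%, and on day 9 it was 6.18% to 68.3% with a median of 29.9%. Less than 25% was left for 11, 11 and 14 genes at the 3 later days in turn, and more than 50% for 9, 6 and 5 genes. PLK1 had the 2nd largest fall on day 3 of all 12859 tested genes, and KIF20A, CDC20, CCNB1 and AURKA were ranked 18, 36, 57 and 59. Of the 500 genes with the largest falls on day 3, 36 were among the 45.

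**Figure D2:**
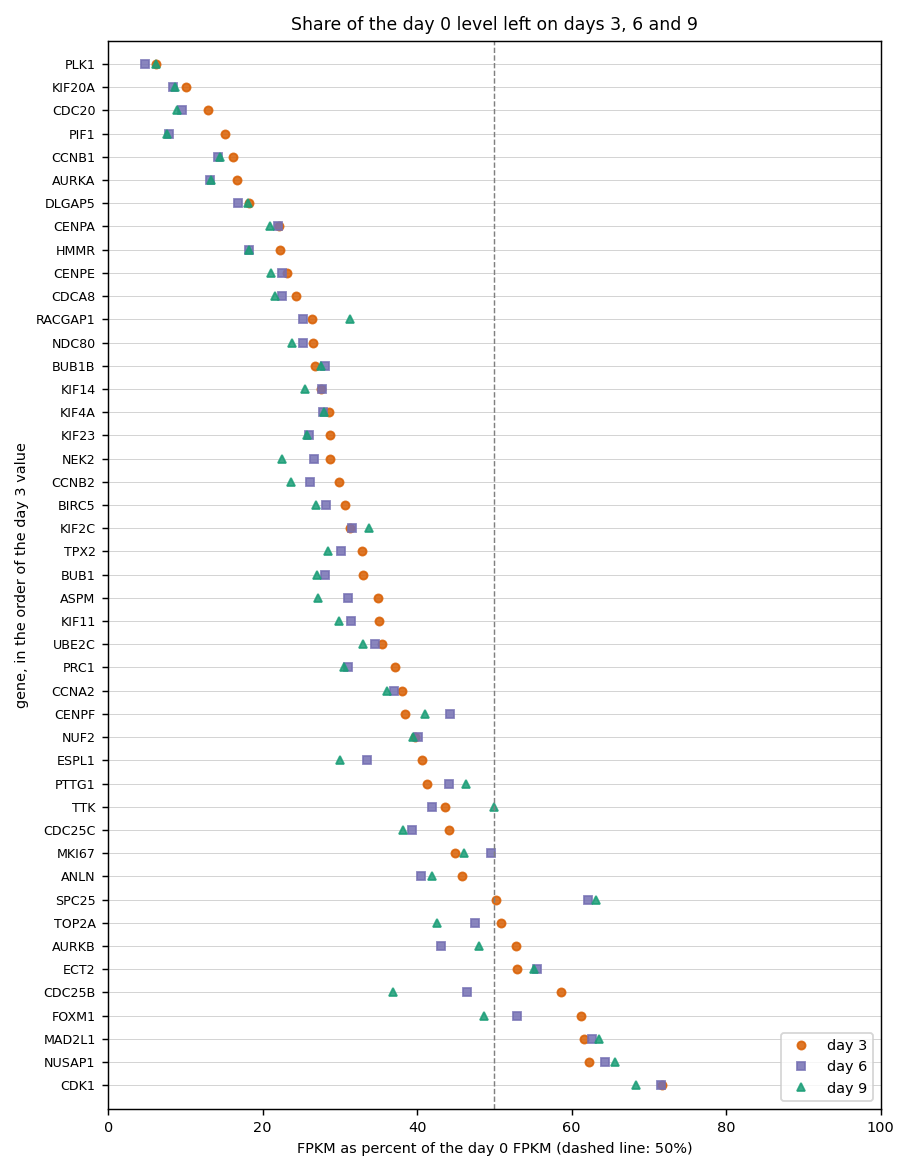
FPKM on days 3, 6 and 9 as a percentage of the day 0 FPKM (horizontal axis) for each of the 45 genes (vertical axis, in the order of day 3), with 1 library per point. PLK1 lies at the low end at 6.17% on day 3 and CDK1 at the high end at 71.7%, and for most genes the 3 later days lie close together.

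Scaling changed the counts more than the direction. The FPKM of all genes summed to 617857 on day 0 and to between 538072 and 569922 on the later days. When each library was rescaled to an equal total, a setting added after the data had been seen, the median of all tested genes moved from -0.08 to 0.10 on day 3, and 32, 34 and 35 of the 45 genes were past the limit at the 3 later days, with 30 past it at each of them. The genes that lost the limit on at least 1 day were AURKB, CENPF, TTK, TOP2A, MKI67, ANLN, PTTG1, CDC25B, CDC25C and FOXM1. Over all tested genes on day 3, 5.30% were past the limit downwards and 8.13% upwards as deposited, and 3.10% and 10.9% after that rescaling. On days 6 and 9, 3.94% and 4.88% were past it downwards after that rescaling, and no share for all 3 days was computed.

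Among the cyclins, CDK1, CDC25B and CDC25C, 4, 5 and 5 of 6 genes were past the limit on days 3, 6 and 9. CCNB1, which encodes cyclin B1, the partner of CDK1 in mitosis, was at 225 FPKM on day 0 and at 36.4, 31.9 and 32.4 FPKM on days 3, 6 and 9, with ratios of -2.60, -2.78 and -2.76. CCNB2, which encodes cyclin B2, was at 105, 31.5, 27.5 and 24.95 FPKM, with ratios of -1.71, -1.90 and -2.03. CCNA2, the cyclin A of S phase and G2, was at 102, 38.9, 37.8 and 36.9 FPKM, with ratios of -1.37, -1.41 and -1.45. All 3 cyclins were thus past the limit at every later day, and cyclin B1 by the most.

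The kinase itself stood apart from its cyclins. CDK1 was at 130 FPKM on day 0 and at 93.2, 93.0 and 88.7 FPKM on the later days, ratios of -0.48, -0.48 and -0.55 that never passed the limit. CDK1 was thereby the gene with the smallest fall of the 45 at each later day, and its promoter has the hexamer and NF-Y boxes. On day 0 CCNB1 was above CDK1 in FPKM, and on days 3, 6 and 9 CDK1 was above CCNB1.

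The 2 CDC25 genes among the 45, CDC25B and CDC25C, encode phosphatases that switch CDK1 on. Both were lower at each step and first passed the limit on different days. With 1 library a day, a difference in timing cannot be told from noise. CDC25C was at 30.5 FPKM on day 0 and at 13.5, 12.0 and 11.6 FPKM later, past the limit at each day (-1.12, -1.28, -1.32). CDC25B declined stepwise from 77.7 FPKM to 45.5, 36.1 and 28.7 FPKM, with ratios of -0.76, -1.08 and -1.41. Its spread over days 3, 6 and 9 was 0.65 on the log2 scale, the widest of the 45. FOXM1, the transcription factor that activates this programme, also declined at each step, from 94.8 FPKM to 58.0, 50.2 and 46.2 FPKM. Its ratios were -0.70, -0.90 and -1.02, so it was past the limit on day 9 only. Rescaling to equal totals moved FOXM1 on day 9 to -0.91 and CDC25B on day 6 to -0.91, short of the limit.

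**Figure D3:**
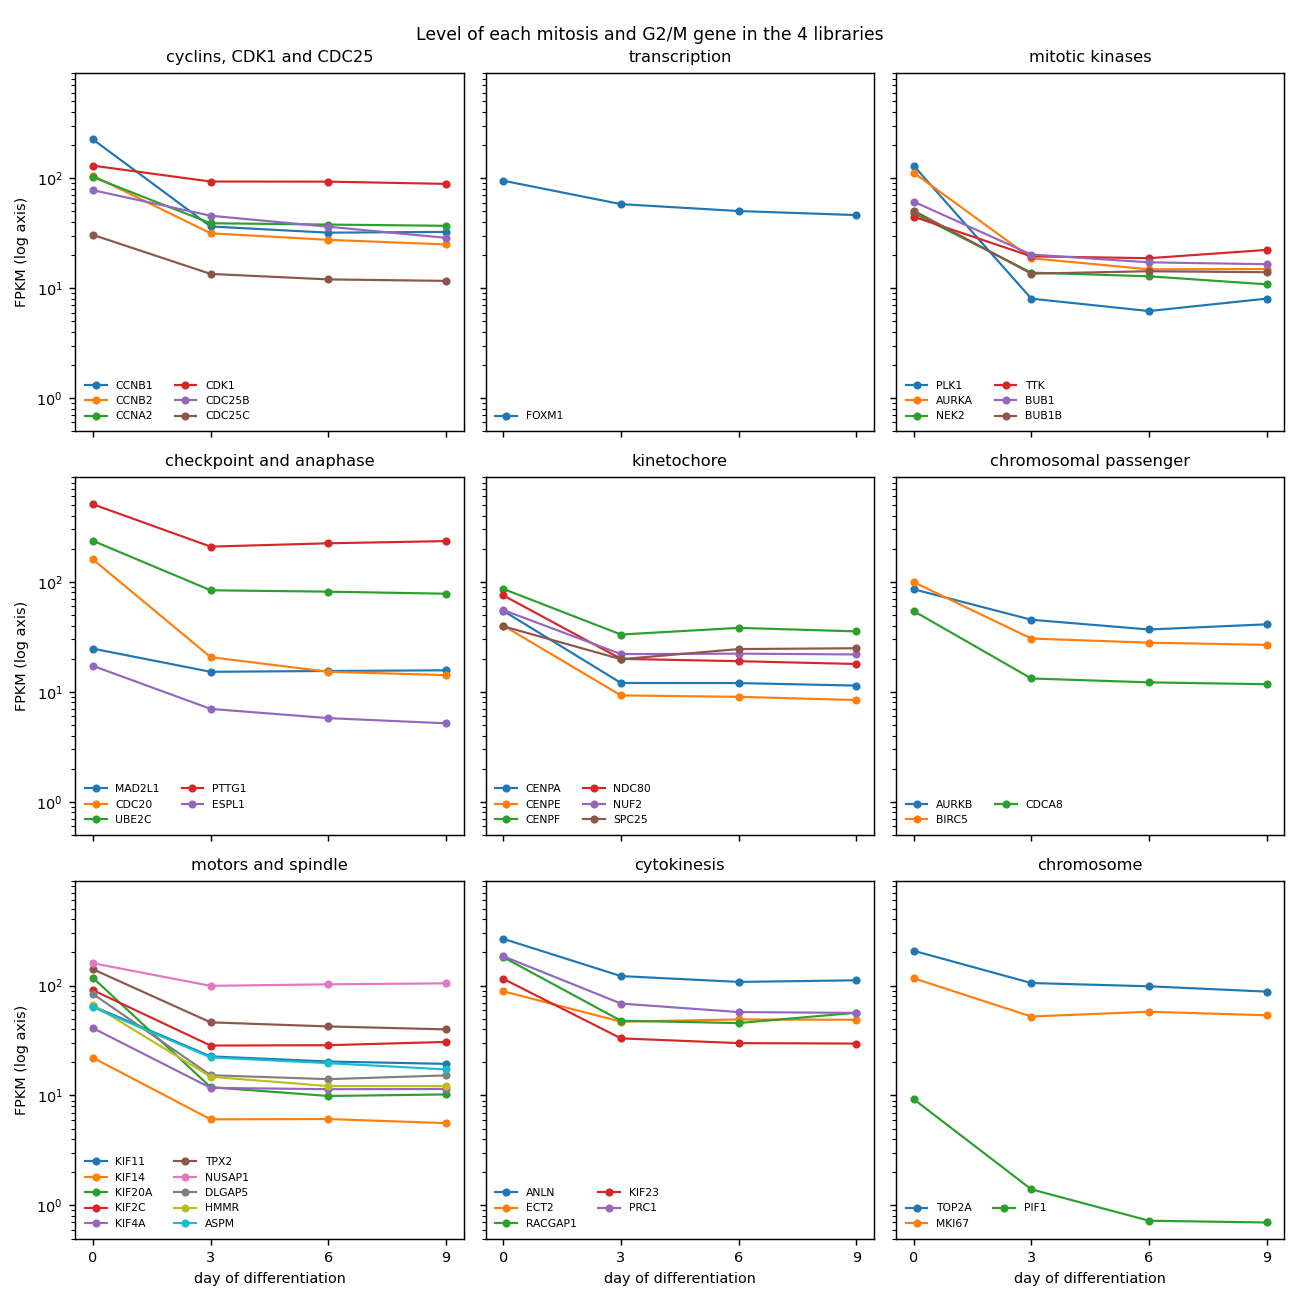
FPKM (vertical log axis) of each of the 45 genes on days 0, 3, 6 and 9 (horizontal axis), in 9 panels by role, 1 library per point. Lines fall between day 0 and day 3 and run nearly level afterwards, with PLK1 the lowest of the kinases (8.02 FPKM on day 3), CDK1 the flattest of its panel and PTTG1 the highest gene throughout.

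All 6 mitotic kinase genes were past the limit on days 3 and 6, and 5 on day 9. PLK1, a kinase needed for mitotic entry, centrosome maturation and cytokinesis, was at 130 FPKM on day 0 and at 8.02, 6.19 and 8.03 FPKM later, with ratios of -3.86, -4.19 and -3.86, the lowest of the 45 at each day. AURKA, the Aurora kinase of the centrosome and spindle pole, was at 112, 18.7, 14.8 and 14.9 FPKM, with ratios of -2.52, -2.84 and -2.83. PLK1 and CDK1 were both at 130 FPKM on day 0, and on day 3 PLK1 was at 8.02 FPKM where CDK1 was at 93.2 FPKM.

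The other 4 kinases stayed nearer to their day 0 levels. NEK2, which separates the centrosomes, was at 48.1, 13.8, 12.8 and 10.8 FPKM (-1.73, -1.83, -2.05). BUB1 and BUB1B, which encode checkpoint proteins that sit at unattached kinetochores, were at 61.2 and 50.6 FPKM on day 0 and at 16.5 and 13.9 FPKM on day 9, past the limit at each day (BUB1 -1.55, -1.78 and -1.83, BUB1B -1.83, -1.76 and -1.79). TTK, the MPS1 kinase that starts the spindle checkpoint, was at 44.6, 19.4, 18.7 and 22.3 FPKM. Its ratios were -1.16, -1.21 and -0.97, so TTK was short of the limit on day 9.

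Of the 5 genes of the checkpoint effector and anaphase group, 4 were past the limit at each later day. CDC20, the activator of the anaphase-promoting complex in mitosis, was at 160 FPKM on day 0 and at 20.7, 15.2 and 14.2 FPKM, with ratios of -2.89, -3.31 and -3.41. UBE2C, the ubiquitin-conjugating enzyme of that complex, was at 236, 83.8, 81.4 and 78.0 FPKM (-1.48, -1.52, -1.59). CDC20 thus kept 8.86% of its day 0 level on day 9, where UBE2C kept 33.0%.

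PTTG1, which encodes securin, the inhibitor of separase, was the highest of the 45 in every library, at 507 FPKM on day 0 and 209, 224 and 235 FPKM later. Its ratios of -1.27, -1.17 and -1.11 came nearer to 0 with each later day. ESPL1, which encodes separase, the protease that cuts cohesin, was at 17.2, 6.99, 5.76 and 5.17 FPKM (-1.19, -1.43, -1.56), moving the other way. MAD2L1, which encodes the checkpoint protein MAD2, was the member of this group short of the limit, at 24.7 FPKM on day 0 and 15.2, 15.5 and 15.7 FPKM later (-0.67, -0.64, -0.62).

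At the kinetochore, 5 of 6 genes were past the limit at each later day. CENPA, the histone H3 variant that marks centromeres, was at 54.5, 12.0, 12.0 and 11.4 FPKM (-2.09, -2.09, -2.16). CENPE, a kinesin that moves chromosomes to the metaphase plate, was at 40.0, 9.27, 9.00 and 8.41 FPKM (-2.00, -2.03, -2.12). CENPF, a large coiled-coil protein of the outer kinetochore, was at 86.3, 33.2, 38.2 and 35.4 FPKM (-1.35, -1.16, -1.26). CENPA and CENPE thus fell by more than CENPF.

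NDC80, NUF2 and SPC25 encode subunits of the NDC80 complex, which holds microtubules, and their levels did not keep their ratio to one another. NDC80 was at 75.3 FPKM on day 0 and at 19.9, 19.0 and 17.9 FPKM (-1.87, -1.93, -2.01). NUF2 was at 55.4, 22.0, 22.2 and 21.8 FPKM (-1.29, -1.28, -1.30). SPC25 was at 39.4, 19.8, 24.5 and 24.9 FPKM (-0.96, -0.67, -0.64) and never passed the limit. NDC80 was the highest of the 3 on day 0 and SPC25 was the highest on days 6 and 9. With the most abundant transcript alone, NUF2 was also short of the limit on all 3 days, at -0.98, -0.96 and -0.99.

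The chromosomal passenger complex corrects wrong attachments and then directs cytokinesis. Of the 3 genes of this complex that are among the 45, 2, 3 and 3 were past the limit on days 3, 6 and 9. CDCA8, which encodes borealin, was at 54.2, 13.2, 12.2 and 11.7 FPKM (-1.96, -2.07, -2.12). BIRC5, which encodes survivin, was at 99.3, 30.5, 28.0 and 26.7 FPKM (-1.67, -1.79, -1.86). AURKB, its kinase, was at 85.7, 45.2, 36.9 and 41.1 FPKM, with ratios of -0.91, -1.19 and -1.04. The kinase of the complex was thus nearer to its day 0 level than CDCA8 and BIRC5, and than the other Aurora kinase. Its day 9 ratio was short of the limit when libraries were rescaled to equal totals (-0.93).

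Of the 10 genes of spindle motors and spindle assembly, 9 were past the limit at each later day. KIF20A, a kinesin of the central spindle, was at 118 FPKM on day 0 and at 11.9, 9.90 and 10.2 FPKM, with ratios of -3.20, -3.44 and -3.40, second to PLK1 on days 3 and 6. DLGAP5 and HMMR, which encode microtubule-binding spindle assembly proteins, came next. DLGAP5 was at 83.9, 15.3, 14.1 and 15.2 FPKM (-2.38, -2.49, -2.39), and HMMR at 66.6, 14.8, 12.2 and 12.2 FPKM (-2.10, -2.36, -2.36).

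The other motors lay in a narrower band. KIF11, the kinesin that pushes the spindle poles apart, was at 64.8, 22.7, 20.4 and 19.4 FPKM (-1.47, -1.62, -1.69). KIF2C, which takes microtubules apart at the centromere, was at 90.8, 28.4, 28.7 and 30.7 FPKM (-1.64, -1.63, -1.53). KIF4A, a motor on chromosome arms and the midzone, was at 41.0, 11.7, 11.4 and 11.4 FPKM (-1.72, -1.76, -1.75), and KIF14, a motor of cytokinesis, at 22.1, 6.07, 6.11 and 5.61 FPKM (-1.71, -1.70, -1.80). The day 9 ratios of these 4 kinesins lay between -1.80 and -1.53, although their day 0 levels ran from 22.1 to 90.8 FPKM.

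TPX2, which activates Aurora A on the spindle, was at 141, 46.3, 42.5 and 39.9 FPKM (-1.58, -1.70, -1.79), and ASPM, a spindle pole protein, was at 63.5, 22.2, 19.7 and 17.3 FPKM (-1.47, -1.64, -1.82). NUSAP1, which bundles microtubules near chromosomes, was the exception, at 160 FPKM on day 0 and at 99.3, 103 and 105 FPKM. Its ratios were -0.68, -0.63 and -0.60. On day 0 KIF20A was below NUSAP1 by 118 to 160 FPKM, and on day 9 by 10.2 to 105 FPKM.

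Of the 5 cytokinesis genes, 4 were past the limit at each later day. KIF23 and RACGAP1 encode the 2 parts of centralspindlin. KIF23 was at 115, 33.1, 29.9 and 29.7 FPKM (-1.77, -1.91, -1.92), and RACGAP1 was at 181, 47.8, 45.6 and 56.6 FPKM (-1.90, -1.97, -1.66). RACGAP1 has 24 listed transcripts, the most of the 45 genes. ECT2, the exchange factor for RhoA that centralspindlin recruits, was at 88.6, 46.9, 49.2 and 48.8 FPKM (-0.90, -0.84, -0.85), short of the limit at each day.

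PRC1, which crosslinks the central spindle, was at 185, 68.6, 57.4 and 56.4 FPKM (-1.42, -1.67, -1.69). Its antisense RNA PRC1-AS1, listed among the lncRNAs, was at 25.5, 10.6, 7.64 and 6.75 FPKM (-1.19, -1.61, -1.77). Whether strand was used in counting is not given in the sources used here, so reads of this pair may not be separable. ANLN, which encodes anillin, the scaffold of the contractile ring, was at 266, 122, 108 and 112 FPKM (-1.12, -1.29, -1.25). ANLN was the second highest of the 45 on day 0, and on day 3 it was short of the limit under equal totals (-0.92) and with its most abundant transcript alone (-0.98).

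The 3 genes of chromosome structure lay near the limit except for PIF1. TOP2A, which untangles sister chromatids, was at 207, 105, 98.4 and 88.0 FPKM (-0.97, -1.07, -1.22). MKI67, which encodes the proliferation marker Ki-67 that coats mitotic chromosomes, was at 116, 52.3, 57.8 and 53.6 FPKM. Its ratios were -1.14, -0.9996 and -1.10, the second just short of the limit. PIF1, a DNA helicase, was the lowest of the 45 in every library, at 9.26, 1.40, 0.726 and 0.700 FPKM, with ratios of -2.10, -2.57 and -2.59. On days 6 and 9 PIF1 was below 1 FPKM.

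The genes nearest to the limit on day 3 were ANLN (-1.12), CDC25C (-1.12) and MKI67 (-1.14) on one side and TOP2A (-0.97), SPC25 (-0.96) and AURKB (-0.91) on the other. The 9 genes short of it on day 3 were TOP2A, SPC25, AURKB, ECT2, CDC25B, FOXM1, NUSAP1, MAD2L1 and CDK1. Of these, SPC25, ECT2, NUSAP1, MAD2L1 and CDK1 were short of it on days 6 and 9 as well.

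After day 3 the levels were nearly flat. Between day 3 and day 6, 0 of 45 genes passed the limit in either direction, where 0.443% of tested genes were past it downwards and 0.607% upwards. The ratios ran from -0.48 (PIF1) to 0.29 (SPC25), with a median of -0.11. Between day 6 and day 9, again 0 of 45 passed it, against 0.163% downwards and 0.381% upwards of all genes. These ratios ran from -0.32 (CDC25B) to 0.33 (PLK1), with a median of -0.04. The limit is seldom passed by any gene in these steps, so the counts of 0 are close to the background.

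Small declines were the more frequent direction. From day 3 to day 6, 34 of 45 genes (75.6%) had a ratio below 0, against 50.4% of all tested genes, and from day 6 to day 9, 30 of 45 (66.7%), against 47.2%. Under equal totals these were 82.2% against 54.3% and 84.4% against 59.8%. As deposited, 24 of the 45 genes were lower at every step from day 0 to day 9, among them CCNB2, CDC20, CDC25B, FOXM1, NDC80, TPX2 and TOP2A, against 13.0% of all tested genes. That count was 31 under equal totals and 21 with the most abundant transcript alone, against 14.1% and 12.1%. These counts include the step from day 0 to day 3, in which all 45 genes fell, against 55.1% of all tested genes. They are thus not a measure of the later steps alone. The spread of a gene's ratio over days 3, 6 and 9 had a median of 0.20 on the log2 scale, against 0.25 for all tested genes, and it was above 0.5 for CDC25B and CDC20 only (2 of 45, 4.44%), against 16.7% of all tested genes. No replicate shows how much of such small steps is noise.

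**Figure D4:**
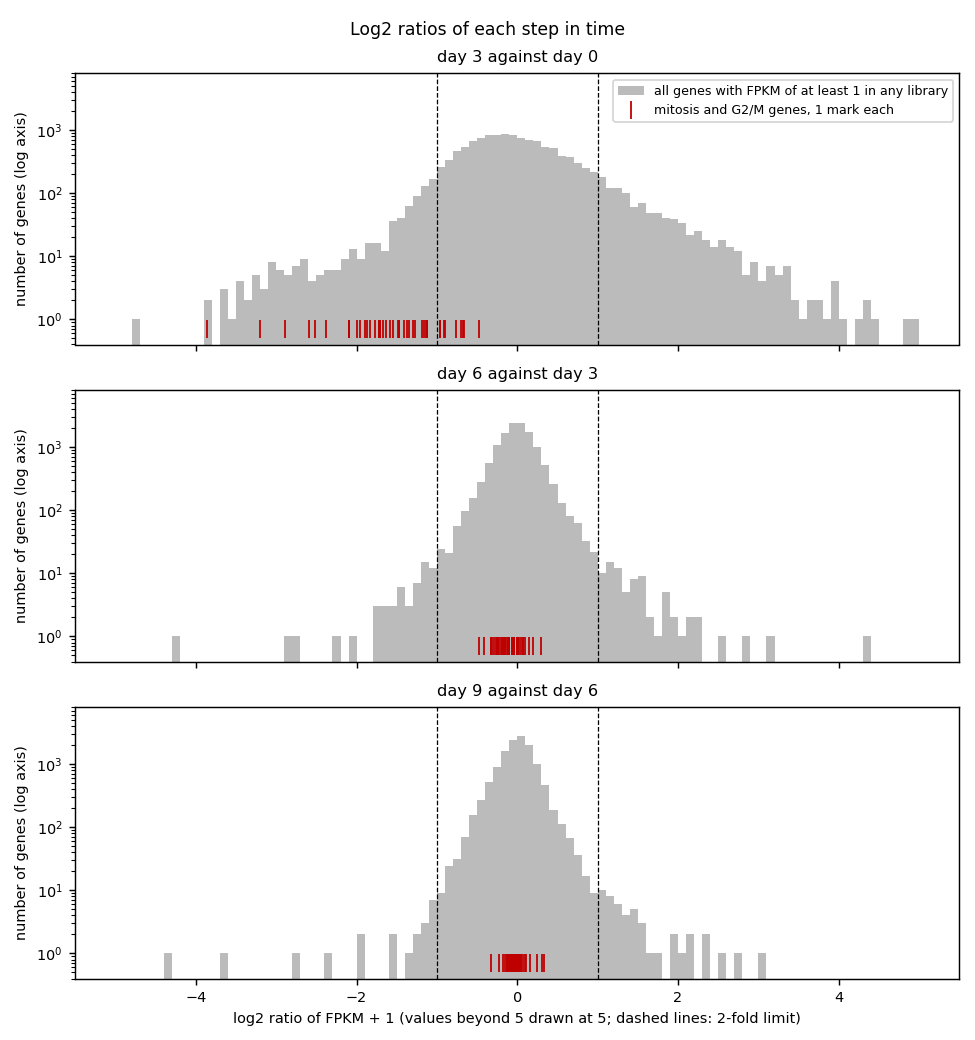
Number of genes (vertical log axis) by log2 ratio of FPKM + 1 (horizontal axis) for day 3 against day 0, day 6 against day 3 and day 9 against day 6; grey bars are the 12859 tested genes, red marks the 45 mitosis and G2/M genes, and dashed lines the 2-fold limit. In the first step the red marks lie to the left of 0, from -3.86 to -0.48, and in the later steps they lie around 0, from -0.48 to 0.29 and from -0.32 to 0.33.

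Single transcripts followed their genes. The 45 genes have 226 listed transcripts, of which 184 reached 1 FPKM in any library. Of these, 120, 125 and 126 (65.2%, 67.9% and 68.5%) were past the limit downwards on days 3, 6 and 9, where 10.6%, 11.4% and 11.0% of all 37418 such transcripts were. Upwards there were 1, 2 and 0, where 9.46%, 10.4% and 10.8% of all such transcripts were. On all 3 days 102 of the 184 transcripts were past the limit downwards and 0 upwards, and no such share was computed over all transcripts.

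The most abundant transcript of a gene was the same in all 4 libraries for 40 of 45 genes. It differed between day 0 and all later days for AURKB, CDC25B and FOXM1, which were short of the limit on day 3. It differed on day 9 alone for HMMR and on day 6 alone for PIF1, both past the limit at each later day. In CDC25B, ENST00000439880 held 37.1% of the gene's FPKM on day 0 and ENST00000245960 held 25.2%. On day 3 they held 32.5% and 37.8%, as the first went from 28.9 to 14.8 FPKM and the second from 19.6 to 17.2 FPKM. In AURKB, ENST00000534871 went from 33.4 to 11.1 FPKM between day 0 and day 3, and ENST00000585124 from 28.4 to 20.3 FPKM. In FOXM1 the leading pair were at 36.7 and 36.3 FPKM on day 0, so that their order there rests on a small difference. Transcript shares of FPKM are estimates and no error was given for them.

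Other genes of the pathway were taken from lists that overlap none of the 45. Of 35 other mitotic genes, 12, 17 and 15 (34.3%, 48.6% and 42.9%) were past the limit downwards on days 3, 6 and 9 and 0 upwards, with medians of -0.74, -0.93 and -0.82. TROAP, a spindle assembly protein, had the largest fall there on day 9, from 105 FPKM to 24.7, 23.6 and 21.4 FPKM (-2.05, -2.11, -2.24). DEPDC1 (-1.59, -2.02, -2.00), SPAG5, a spindle protein (-1.54, -1.81, -1.77), and CASC5, the kinetochore scaffold KNL1 (-1.58, -1.47, -1.75), followed in the order of day 9 among those past the limit on all 3 days. A further 27 genes encode mitotic machinery that is made throughout the cycle, such as cohesin and the core of the anaphase-promoting complex. Of these, 1 (3.70%) was past the limit downwards at each day, near the 5.30% to 6.52% of all tested genes. Their medians were -0.51, -0.52 and -0.53, against -0.08, -0.08 and -0.09 for all tested genes. Ratios below 0 were found for 74.1%, 77.8% and 77.8% of them, against 55.1%, 54.8% and 55.1%. The gene past the limit was CDC27, a subunit of the anaphase-promoting complex, at 63.1, 25.9, 21.6 and 19.3 FPKM (-1.25, -1.50, -1.66).

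Of 16 regulators and DREAM or MuvB subunits, 3, 3 and 2 (18.8%, 18.8% and 12.5%) were past the limit downwards and 2 (12.5%) upwards at each day, the latter near the background of 8.13% to 9.60%, with medians of -0.17, -0.19 and -0.20. CDKN1A, which encodes the CDK inhibitor p21, went from 74.7 FPKM to 1524, 1391 and 1283 FPKM (4.33, 4.20, 4.08). GADD45A, a stress-induced inhibitor of CDK1, went from 76.9 FPKM to 163, 161 and 166 FPKM (1.07, 1.06, 1.10). MYBL2, which encodes B-MYB, went from 175 FPKM to 86.2, 76.1 and 77.0 FPKM (-1.01, -1.19, -1.17), and FZR1, the activator of the anaphase-promoting complex in G1, from 26.1 FPKM to 10.6, 10.5 and 11.8 FPKM (-1.23, -1.24, -1.08).

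The DNA-binding parts of the repressor complex and the inhibitory kinase of CDK1 differed in their courses. E2F4, the E2F of DREAM, was at 28.7, 13.4, 12.4 and 14.5 FPKM (-1.04, -1.15, -0.94), past the limit downwards on days 3 and 6. LIN54, which contacts the homology region, was at 22.9, 21.0, 23.6 and 25.1 FPKM, close to its day 0 level at each day (-0.12, 0.04, 0.13). WEE1, which holds CDK1 inactive, was at 23.5, 26.1, 30.4 and 31.3 FPKM, short of the limit upwards (0.14, 0.35, 0.40). The part of any of these in the decrease of the 45 genes was not tested.

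**Figure D5:**
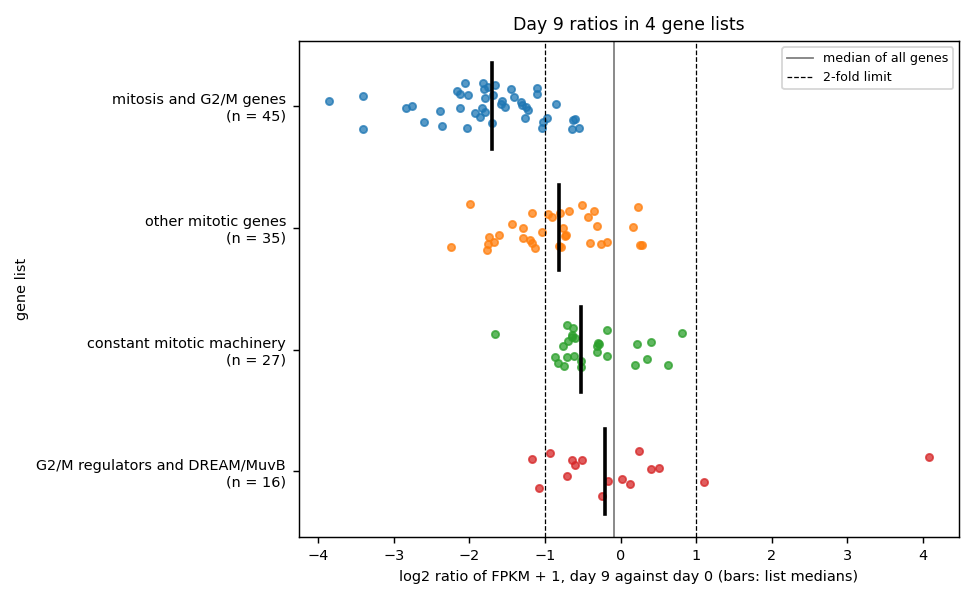
Log2 ratio of FPKM + 1 on day 9 against day 0 (horizontal axis) for each gene of 4 lists (vertical axis), with black bars at list medians, a grey line at the median of all tested genes and dashed lines at the 2-fold limit. Medians lie at -1.69 for the 45 genes, -0.82 for 35 other mitotic genes, -0.53 for 27 genes of constant machinery and -0.20 for 16 regulators, and CDKN1A is the point at 4.08.

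The size of the decrease was also set beside the homology region hexamer, as a description. The 28 genes with TTTGAA in the window had a median ratio of -1.47 on day 3 and -1.72 on day 9, with a range on day 3 from -3.86 to -0.48. The 10 genes without it had medians of -1.60 and -1.68, with a range on day 3 from -3.20 to -0.76. KIF20A and CCNB1 are among the genes without it, and CDK1 and NUSAP1 are among those with it. The 10 genes are not all without a homology region, since BUB1 and CDC25B have its form TTCGAA. KIF20A and CCNB1 have TTTAAA 41 and 30 bases before the start. CENPE, PTTG1, KIF2C and CDC25B, also without TTTGAA, have TTTAAA in the window too. The part of the element in the size of the decrease was not tested.

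The label of the cells was checked against marker genes. Of 9 osteoblast markers, 6 reached 1 FPKM, of which 4, 5 and 4 were past the limit upwards on days 3, 6 and 9. Of all tested genes, 8.13%, 9.01% and 9.60% were past it upwards on those days. COL1A1 was at 777 FPKM on day 0 and at 1974, 1587 and 1146 FPKM later, and RUNX2, the osteoblast transcription factor, at 7.37, 26.2, 19.3 and 18.2 FPKM. COL1A2 (2.76, 2.58, 2.15) and ALPL, the alkaline phosphatase of mineralizing cells (2.04, 2.05, 2.001), were past the limit upwards at each day. ALPL did so at a low level, at 0.294, 4.32, 4.35 and 4.18 FPKM. COL1A1 passed the limit on days 3 and 6 only (1.34, 1.03, 0.56), and SPP1 on days 6 and 9 only (0.69, 1.78, 2.24). SPARC was short of it at each day (0.40, 0.28, 0.20). The markers SP7, IBSP and BGLAP stayed under 1 FPKM. Of 4 blood markers only CD14 reached 1 FPKM, and of 3 endothelial markers 0 did. KRT8 and KRT18, keratins listed as epithelial markers, had ratios to day 0 below 0 at each later day (KRT8 at 517, 260, 184 and 189 FPKM), while EPCAM and CDH1 stayed under 1 FPKM. Of 5 fat and cartilage markers, SOX9, a cartilage transcription factor, was past the limit upwards at each day from a low level, at 1.21, 4.48, 5.08 and 5.32 FPKM (1.31, 1.46, 1.52). PPARG, the fat cell regulator, was at 2.75, 5.17, 6.19 and 6.26 FPKM (0.72, 0.94, 0.96). ADIPOQ was listed at 0 in every library, and ACAN and COL2A1 stayed under 1 FPKM. The part of these in the decrease of the mitosis genes was not tested.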

How the data were processed

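RNA of hFOB 1.19 cells was sequenced once at each of 4 time points, after removal of ribosomal RNA. Per the labels, RNase R, which digests linear RNA, was used for the mRNA libraries and not for the circRNA ones, wording that the files do not settle. The methods name TopHat and Bowtie for alignment, and the submitters' processing notes list Bowtie 0.12.2 and a mouse build. The genome build and the program behind the expression values are not given in the sources used here. The authors deposited FPKM per transcript for mRNAs and lncRNAs. FPKM hold no counts, so the depth behind each value is unknown and no interval could be given. The circRNA tables, which carry no gene names, and the authors' own comparisons with day 0 (fold changes, p-values and q-values) were not used.

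FPKM were summed per gene symbol over the 79798 transcripts of the mRNA table. Genes with at least 1 FPKM in any library were kept and are called the tested genes, 1 was added, and log2 ratios between libraries were set against a limit of 1 in size. With 1 library per time point no statistical test was made. The genes and gene lists were chosen with earlier results of these data known. All 45 genes are named, and of the 3 lists of pathway genes the regulators of the background text and up to 4 genes a list with the largest day 9 ratio past the limit in 1 direction on all 3 days. One gene named by the first part of this rule is not reported here. Markers are named to check the label of the cells. Promoters come from RefSeq (GRCh38.p14). The alternatives were a pseudocount of 0.1, no minimum or one of 5 FPKM, a 4-fold limit, the most abundant transcript alone, equal medians of the libraries and promoters without the 50 bases after the start, and equal totals, added after the data were seen. Scripts were tested on simulated data. Python 3.11.15, numpy 2.4.6, pandas 2.3.3 and matplotlib 3.10.9 were used.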

Additional observations from a re-analysis of the deposited data

How the results depend on the processing

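No gene of the 45 changed the direction of its ratio to day 0 under any of the alternatives run. With a 4-fold limit, 9, 11 and 14 of the 45 genes were past it at days 3, 6 and 9, and 9 at each of them, fewer by construction. Of all tested genes, 0.770%, 0.925% and 1.03% were past that limit downwards on those days, and no share for all 3 days was computed. With the most abundant transcript alone, 1 gene passed the limit between day 3 and day 6. This was PIF1, whose main transcript was at 1.40 FPKM on day 3 and close to 0 on day 6, a ratio of -1.26. Of the 135 ratios to day 0, 4 lost the limit under equal medians, 12 under equal totals and 8 with the most abundant transcript alone, where 1 gained it, and 1 gained it with a pseudocount of 0.1. The cause was not tested. Without the 50 bases after the start, TTTGAA was found in 57.9% of the genes and 11.7% of other expressed genes. With a single library a day, nothing could be left out or paired. What depth limits could not be measured, since FPKM hold no counts.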
